A study of Homo sapiens with 11 samples.

Results

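The miR-148 and miR-152 family was followed through 5 mature miRNAs, hsa-miR-148a-3p, hsa-miR-148a-5p, hsa-miR-148b-3p, hsa-miR-148b-5p and hsa-miR-152-3p, of 2576 mature miRNAs in the count tables. They were taken by their names, and all 5 passed the filter on low counts in both experiments. The cells were SH-SY5Y, a subline of the human neuroblastoma line SK-N-SH that takes on neuron-like features under all-trans retinoic acid (ATRA). In every library, controls included, the cells had been differentiated with ATRA for 7 days. In co-treatment, hydrogen peroxide (H2O2) at 10 µM was in the medium over the same 7 days in 3 libraries, and 3 control libraries received none. In pre-treatment, 3 libraries came from cells given 10 µM H2O2 for 72 h before ATRA and then freed of it, and 2 control libraries from cells without H2O2. The study describes biological triplicates with 1 outlying sample removed, and all libraries come from a single cell line.

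The members come from hairpins in which a 5p and a 3p strand pair with each other. One strand is usually loaded into Argonaute and guides it to mRNAs that match the seed (bases 2 to 8 of the miRNA), while the other is mostly degraded. In this family the 3p strands are the usual guides. They are known for repressing the DNA methyltransferase DNMT1, and miR-148a is a major liver miRNA that also acts on the LDL receptor. The mature sequences below, from RefSeq, show what the guide strands share, with the seed in capitals.
hsa-miR-148a-3p: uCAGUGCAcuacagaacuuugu
hsa-miR-148b-3p: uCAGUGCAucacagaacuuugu
hsa-miR-152-3p: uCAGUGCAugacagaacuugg

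The seed CAGUGCA was identical in the guide strands, and of 2370 mature human miRNA names in the RefSeq table only these 3 carried it (0.127%). Counted from 1 at the 5′ end, hsa-miR-148b-3p differed from hsa-miR-148a-3p by C9U and U10C and matched it at the other 20 of 22 positions. hsa-miR-152-3p differed from hsa-miR-148a-3p by C9U, U10G and U20G over 21 compared positions, and is 21 bases long. hsa-miR-148a-3p and hsa-miR-148b-3p have the same length, 22 bases, and the same GC content, 40.9%, while that of hsa-miR-152-3p is 47.6%. The 5p strand of the miR-148b hairpin, shown because its level is set against that of its partner further on, has another seed, again in capitals.
hsa-miR-148b-5p: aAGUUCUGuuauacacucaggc

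The hairpins lie on different chromosomes. On GRCh37, the assembly also called hg19 to which the reads had been aligned, MIR148A lies on the minus strand of chromosome 7 from 25989539 to 25989606, inside a long non-coding RNA gene without overlapping its exons. MIR148B lies on the plus strand of chromosome 12 from 54731000 to 54731098, in an intron of COPZ1. A long non-coding RNA gene on the same strand also spans MIR148B, again without exon overlap. MIR152 lies on the minus strand of chromosome 17 from 46114527 to 46114613, in an intron of COPZ2. COPZ1 and COPZ2 encode paralogous subunits of the COPI vesicle coat, and each hairpin is on the strand of its host gene. The genome sequence at the 3 positions was identical to the RefSeq hairpins.

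Library totals ranged from 5343953 to 8927582 counts (median 7425640). Levels are given as CPM, counts relative to the library total after TMM scaling within each experiment. The guide strands rested on 8601 to 63569 counts in each library, where counting error alone is at most 1.08%. hsa-miR-148b-5p rested on 215 to 497 counts and hsa-miR-148a-5p on 30 to 69, where counting error alone is 12.0% to 18.3%. Counting error was taken as the square root of the count and does not cover the spread between cultures. The pre-treatment controls were the least alike of the replicates, their log2 CPM correlating at 0.933 over all miRNAs where pairs in other groups reached 0.977 to 0.991, so the members' pre-treatment log2FC are also given with either control as the only one.

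H2O2 during differentiation was compared with control to ask which members respond when the oxidant and ATRA act together. Of the 5 members, 1 passed edgeR's exact test (Benjamini-Hochberg FDR under 0.05 over all tested miRNAs and absolute log2FC above 0.6), where 26.2% of all 790 tested miRNAs did, and the same 1 passed the quasi-likelihood test, where 22.9% of all did. None of the members had a log2FC above 0, which 48.9% of all tested miRNAs had. hsa-miR-148a-3p, the least abundant guide strand, was the member that fell. It stood at 3175, 3042 and 4958 CPM in the controls and at 1755, 2067 and 1389 CPM in the H2O2 libraries. Every H2O2 library lay below every control, as was the case in either direction for 41.6% of tested miRNAs. This came to a 2.14-fold lower level, with a log2FC of −1.10 and an SE of 0.26. The exact test in edgeR returned FDR = 0.00223 and the quasi-likelihood test 0.00908. In RNA from whole cultures, fewer cells making a miRNA and less of it per cell cannot be told apart. The log2FC was −0.94 and no longer passed without H2O2 replicate 3 (FDR = 0.0595, exact test). In a quasi-likelihood fit of the 363 miRNAs with a known GC content and a mean of at least 10 CPM, it went from −0.85 (FDR = 0.0186) to −0.50 (FDR = 0.163) once each library's trend on GC content was removed.

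The sister miRNAs with the same seed did not pass the test. hsa-miR-148b-3p, whose 22 bases differ from those of hsa-miR-148a-3p at 2 positions, had 5742, 7498 and 7831 CPM in the controls and 5375, 7069 and 5374 CPM in the H2O2 libraries. These ranges overlapped, and the log2FC was −0.24 (SE 0.23, FDR = 0.534, exact test). In the fit of miRNAs with a known GC content the log2FC was already 0.0080, and it was 0.35 once the GC trend was removed. hsa-miR-152-3p had 3865, 4918 and 5976 CPM in the controls and 3686, 3565 and 3746 CPM with H2O2. The H2O2 libraries were tightly grouped just under the lowest control, without overlap, and the log2FC was −0.42 (SE 0.23, FDR = 0.224, exact test).

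The 5p strands, which are usually discarded, were far less abundant. hsa-miR-148b-5p had 56.5, 62.1 and 63.0 CPM in the controls and 52.6, 36.4 and 41.0 CPM with H2O2, a log2FC of −0.48 (SE 0.27, FDR = 0.184, exact test). Its groups did not overlap, and in the fit of miRNAs with a known GC content its log2FC was −0.24, and 0.11 once the GC trend was removed. hsa-miR-148a-5p had 5.40, 8.82 and 5.67 CPM in the controls and 4.11, 5.08 and 7.56 CPM with H2O2. Its groups overlapped, with a log2FC of −0.25 (SE 0.36, FDR = 0.682, exact test).

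**Figure D1:**
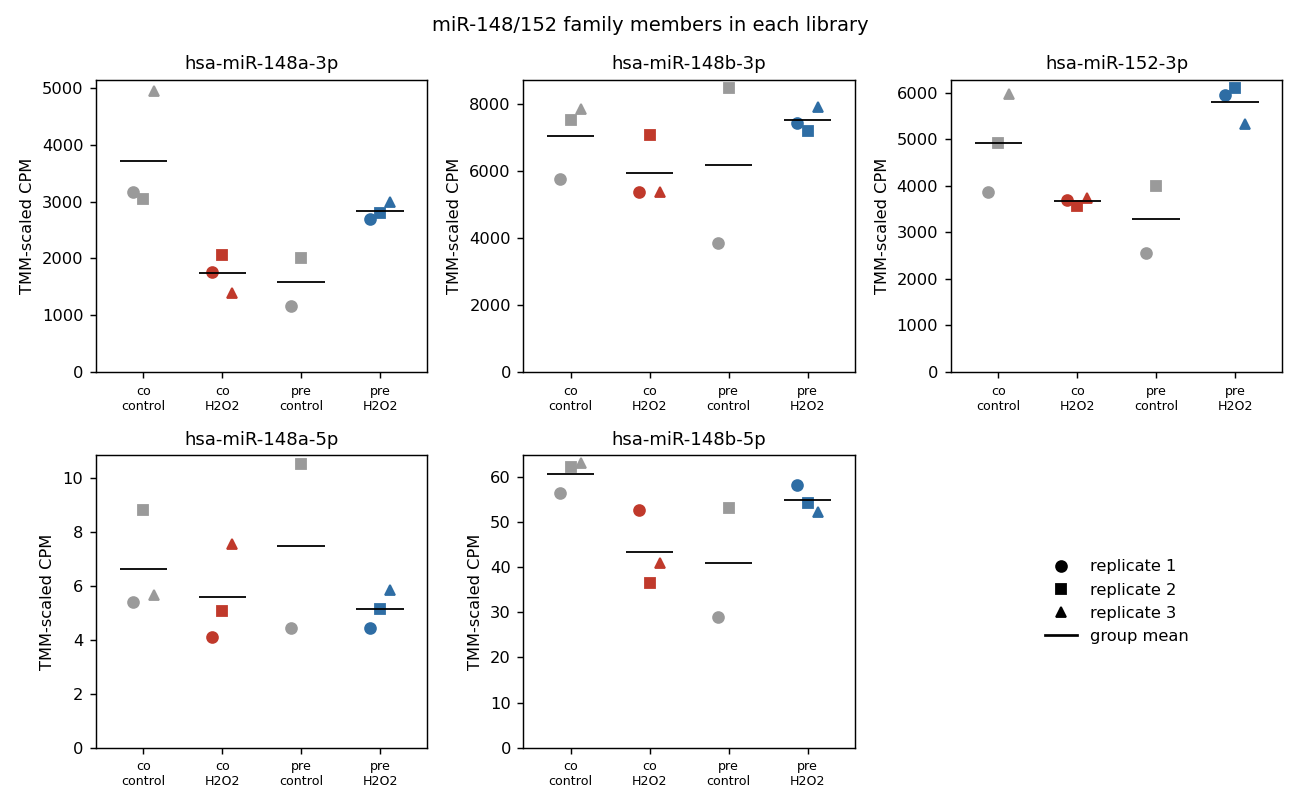
TMM-scaled CPM of each member by library, with 1 panel per miRNA, each y axis starting at 0, and groups on the x axis (co, co-treatment; pre, pre-treatment). Points are libraries, their shapes replicate numbers, and lines group means. The co-treatment H2O2 libraries of hsa-miR-148a-3p lie at 1389 to 2067 CPM, under all controls of that experiment, and in pre-treatment at 2695 to 3001 CPM, above both controls.

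H2O2 before differentiation was compared with its own controls to ask whether an earlier, withdrawn exposure leaves a trace in the family. None of the 5 members passed the exact test, where 15.3% of 868 tested miRNAs did (5.41% higher and 9.91% lower with H2O2) and 248 had an unadjusted p under 0.05. The log2FC was above 0 for 4 of the 5, as for 44.8% of all. By edgeR's quasi-likelihood test the share of all miRNAs was 1.96% and none of the members passed, while hsa-miR-148a-3p and hsa-miR-152-3p had an unadjusted p under 0.05 by both tests (exact p = 0.0324 and 0.0289). hsa-miR-148a-3p had 1155 and 2000 CPM in the controls and 2695, 2797 and 3001 CPM in the H2O2 libraries. Every H2O2 library lay above both controls, as was the case in either direction for 46% of tested miRNAs, and the log2FC was 0.84 (SE 0.31, FDR = 0.134, exact test). It was 0.62 (FDR = 0.0169, exact test) when control 2 was the only control and 1.53 (FDR = 9.43e-10, exact test) when control 1 was, fits in which the lone control is assumed to vary as little as the H2O2 libraries.

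hsa-miR-152-3p, the member hosted in COPZ2, showed a difference of like size. It had 2561 and 3999 CPM in the controls and 5955, 6100 and 5320 CPM in the H2O2 libraries, again without overlap. Its log2FC was 0.82 (SE 0.29, FDR = 0.124, exact test). With control 2 as the only control it was 0.65 (FDR = 0.00985, exact test), and with control 1 it was 1.41 (FDR = 6.38e-09, exact test). When the 11 libraries were modelled together in edgeR, hsa-miR-152-3p alone of the 5 members passed in pre-treatment, with a log2FC of 0.87 (FDR = 0.0384, quasi-likelihood test), where 15.9% of 945 miRNAs passed.

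hsa-miR-148b-3p was split by its controls. They stood at 3839 and 8481 CPM, below and above the H2O2 libraries at 7436, 7186 and 7890 CPM. The log2FC was 0.28 (SE 0.36, FDR = 0.706, exact test), which turned to −0.058 with control 2 as the only control and reached 1.20 (FDR = 4.93e-07, exact test) with control 1, so the choice of control decides its direction. In the fit of miRNAs with a known GC content it was 0.086, and −0.048 once the GC trend was removed. hsa-miR-148b-5p, from the same hairpin, had 28.9 and 53.1 CPM in the controls and 58.1, 54.2 and 52.1 CPM with H2O2, a log2FC of 0.42 (SE 0.36, FDR = 0.581, exact test) with overlapping groups. Control 2 by itself gave 0.17 and control 1 by itself 1.16 (FDR = 7.45e-05, exact test). hsa-miR-148a-5p had 4.43 and 10.5 CPM in the controls and 4.45, 5.15 and 5.84 CPM with H2O2. Its log2FC was −0.53 (SE 0.45, FDR = 0.524, exact test). Control 2 by itself gave −0.92 (FDR = 0.0265, exact test) and control 1 by itself 0.44, so that its direction too turned with the control.

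**Figure D2:**
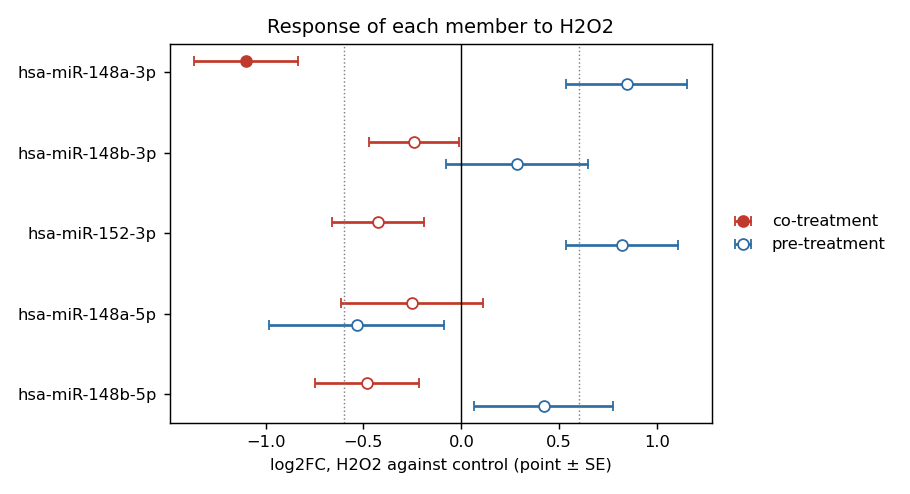
log2FC of H2O2 against control for each member (x axis, log2 scale) with bars of ± SE, red for co-treatment and blue for pre-treatment. Filled points passed the exact test and dotted lines mark an absolute log2FC of 0.6. Only hsa-miR-148a-3p in co-treatment is filled, at −1.10, and the guide strands lie left of 0 in co-treatment and right of 0 in pre-treatment.

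Next, the difference in response between the exposure timings was itself tested, through the interaction term of a model of the 11 libraries (edgeR, quasi-likelihood). It passed an FDR of 0.05 for 2 of the 5 members, where it did so for 27.3% of 945 tested miRNAs. The H2O2 log2FC of hsa-miR-148a-3p was higher in pre-treatment than in co-treatment by 1.99 (SE 0.42, FDR = 0.00436, edgeR). For hsa-miR-152-3p the difference was 1.28 (SE 0.36, FDR = 0.0180, edgeR). That of hsa-miR-148a-3p passed with each of the 11 libraries left out in turn, between 1.48 and 2.38. That of hsa-miR-152-3p passed in 9 of those 11 fits and not without pre-treatment control 1 (0.83, FDR = 0.0912) or co-treatment H2O2 replicate 3 (1.12, FDR = 0.0589). The differences of hsa-miR-148b-3p (0.56, SE 0.40, FDR = 0.314), hsa-miR-148b-5p (0.93, SE 0.42, FDR = 0.11) and hsa-miR-148a-5p (−0.26, SE 0.57, FDR = 0.754) did not pass the same edgeR test. Without pre-treatment control 2, those of hsa-miR-148b-3p (1.18, FDR = 0.00967) and hsa-miR-148b-5p (1.38, FDR = 0.00981) did pass it. The interaction was not fitted with the GC trend removed. Within each experiment, that removal gave hsa-miR-148a-3p a log2FC of −0.50 in co-treatment and 0.47 in pre-treatment. For hsa-miR-152-3p it gave −0.29 and 0.67. The timings were run as separate experiments, so any batch between them cannot be told apart from the difference in timing.

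The controls of the experiments also differed from each other without overlap for hsa-miR-148a-3p and hsa-miR-148b-5p, and overlapped for the other members. On a single TMM scale over all libraries, hsa-miR-148a-3p averaged 3642 ± 1241 CPM (SD, n = 3) in co-treatment controls, 2947 ± 212 CPM (SD, n = 3) in pre-treatment H2O2 libraries, 1711 ± 323 CPM (SD, n = 3) in co-treatment H2O2 libraries and 1579 ± 514 CPM (SD, n = 2) in pre-treatment controls. In that order, the first pair and the last pair overlapped and the middle pair did not. hsa-miR-152-3p had its highest mean, 6021 ± 344 CPM (SD, n = 3), in pre-treatment H2O2 libraries and its lowest, 3290 ± 840 CPM (SD, n = 2), in pre-treatment controls, and neighbours in its order of group means overlapped throughout. The same held for hsa-miR-148b-3p, between 7810 ± 490 CPM and 5857 ± 976 CPM (SD, n = 3 each). hsa-miR-148b-5p had its group means in the order of hsa-miR-148a-3p, from 58.7 to 41.0 CPM, with a gap only between the second and the third. The means of hsa-miR-148a-5p ran from 7.44 to 5.36 CPM with overlap at each step.

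Ratios within a library do not depend on how libraries are scaled, so the sister miRNAs were set against each other directly, a comparison chosen after their values were seen. The count of hsa-miR-148a-3p per count of hsa-miR-148b-3p was 0.553, 0.406 and 0.633 in co-treatment controls and 0.327, 0.292 and 0.259 in the H2O2 libraries. All 3 H2O2 libraries lay below all controls, by 0.84 in mean log2 ratio (controls −0.94 ± 0.33, H2O2 −1.78 ± 0.17, SD, n = 3 each). The exact permutation test gave p = 0.1 (two-sided), the smallest that 3 against 3 libraries allow. In pre-treatment the ratio was 0.301 and 0.236 in the controls and 0.362, 0.389 and 0.380 with H2O2, higher by 0.50 in mean log2 ratio without overlap (exact permutation p = 0.1, two-sided, the smallest that 3 against 2 allow). With each library left out in turn these differences lay between −1.02 and −0.70 in co-treatment and between 0.33 and 0.68 in pre-treatment.

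Against hsa-miR-152-3p, hsa-miR-148a-3p was lower with H2O2 in co-treatment by 0.68 in mean log2 ratio, without overlap (exact permutation p = 0.1, two-sided). In pre-treatment the difference was 0.04 with overlapping groups (exact permutation p = 0.8, two-sided), and it changed sign when single libraries were left out, between −0.060 and 0.12. hsa-miR-152-3p per hsa-miR-148b-3p was higher with H2O2 in pre-treatment by 0.46 in mean log2 ratio without overlap (exact permutation p = 0.2, two-sided), with 0.667 and 0.472 in the controls and 0.674 to 0.849 with H2O2, and differed by −0.16 in co-treatment (exact permutation p = 0.6, two-sided). None of the 12 comparisons of ratios could reach 0.05 at these numbers of libraries.

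The ratio of the strands within a hairpin was compared next. The hairpins are shown with the mature strands listed in RefSeq in capitals, the 3p strand of MIR148A and both strands of MIR148B.
MIR148A: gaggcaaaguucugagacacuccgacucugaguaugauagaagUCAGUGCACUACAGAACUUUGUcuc
MIR148B: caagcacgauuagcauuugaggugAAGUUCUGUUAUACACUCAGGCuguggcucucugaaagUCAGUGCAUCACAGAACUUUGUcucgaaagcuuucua

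In all 11 libraries the 3p strand outnumbered the 5p strand of both hairpins. For MIR148A there were 184 to 875 counts of 3p per count of 5p (median 427), and for MIR148B 102 to 194 (median 131). In pre-treatment the MIR148A ratio was 261 and 190.1 in the controls and 606, 543 and 514 with H2O2, without overlap. Its mean log2 ratio was higher with H2O2 by 1.31, a 2.48-fold higher ratio (9.09 ± 0.12, SD, n = 3, against 7.78 ± 0.31, SD, n = 2, exact permutation p = 0.1, two-sided, the smallest possible), and by 1.09 to 1.53 with each library left out in turn. In co-treatment the MIR148A ratio was 588, 345 and 875 in the controls and 427, 407 and 184 with H2O2, a log2 difference of −0.83 with overlapping groups (exact permutation p = 0.3, two-sided).

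The MIR148B ratio was 133 and 160 in pre-treatment controls and 128, 133 and 151 with H2O2, a log2 difference of −0.09 (exact permutation p = 0.5, two-sided). In co-treatment it was 102, 121 and 124 in the controls and 102, 194 and 131 with H2O2, a difference of 0.26 (exact permutation p = 0.4, two-sided). The groups overlapped in both experiments. The MIR148A ratios varied more over the libraries than those of MIR148B, with a denominator of 30 to 69 counts. The other strand of miR-152, hsa-miR-152-5p, is no member, and its 24 to 65 counts gave 489 to 1253 counts of hsa-miR-152-3p per count. That ratio was lower with H2O2 in co-treatment by 0.57 on the log2 scale, without overlap (exact permutation p = 0.1, two-sided), and differed by 0.18 in pre-treatment (exact permutation p = 0.7, two-sided).

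**Figure D3:**
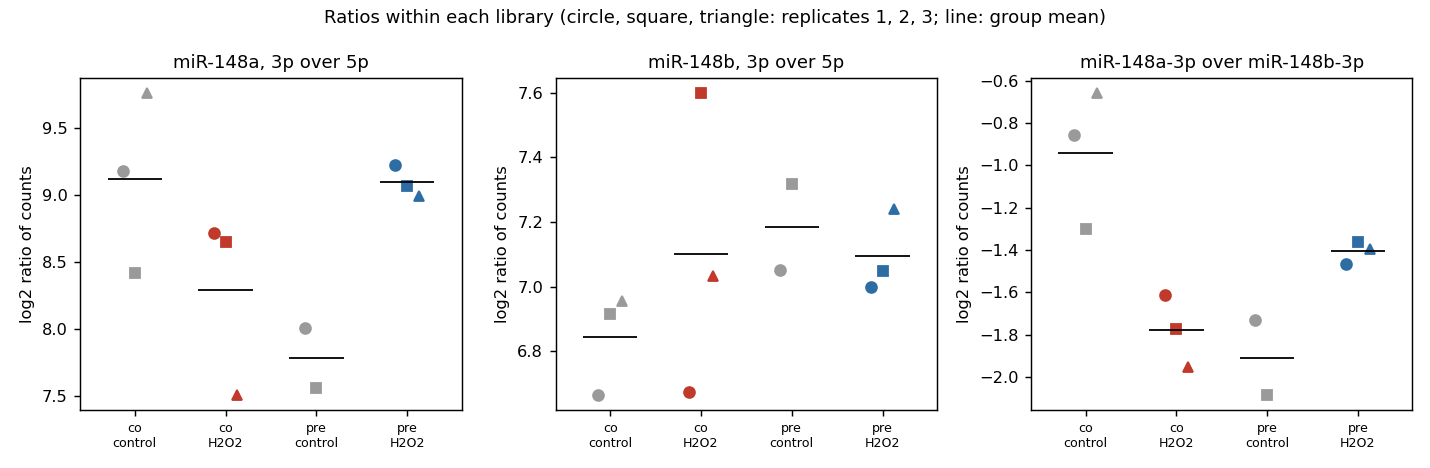
log2 ratio of counts within each library (y axis) by group (x axis), for the strands of MIR148A (left), the strands of MIR148B (middle) and hsa-miR-148a-3p over hsa-miR-148b-3p (right). Points are libraries and lines group means, and the y axes differ in range and do not start at 0. The right panel shows the H2O2 libraries below the controls in co-treatment and above them in pre-treatment.

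The guide strands were also added up, because an mRNA site for the shared seed can be bound by any of them. Their sum took from 0.811% to 1.76% of all counts in a library. In co-treatment it was 15669 ± 2997 CPM (SD, n = 3) in controls and 11342 ± 1187 CPM (SD, n = 3) with H2O2, and in pre-treatment 11017 ± 4897 CPM (SD, n = 2) in controls and 16126 ± 72.9 CPM (SD, n = 3) with H2O2. The pre-treatment controls stood apart from each other at 7554 and 14479 CPM, the second close to the H2O2 libraries at 16083 to 16211 CPM. The order hsa-miR-148b-3p, hsa-miR-152-3p, hsa-miR-148a-3p, from most to least abundant, held in 11 of 11 libraries. hsa-miR-148a-3p made up 23.6% ± 3.53 of the sum in co-treatment controls and 15.2% ± 1.75 with H2O2 (SD, n = 3 each). In pre-treatment its share was 14.5% ± 1.04 in controls (SD, n = 2) and 17.6% ± 0.892 with H2O2 (SD, n = 3). hsa-miR-148b-3p held 45.1%, 52.2%, 54.7% and 46.5% of the sum in these 4 groups in the same order. Among all miRNAs detected, the guide strands ranked between 26 and 64 by group mean, hsa-miR-148b-5p between 235 and 268 and hsa-miR-148a-5p between 436 and 467.

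**Figure D4:**
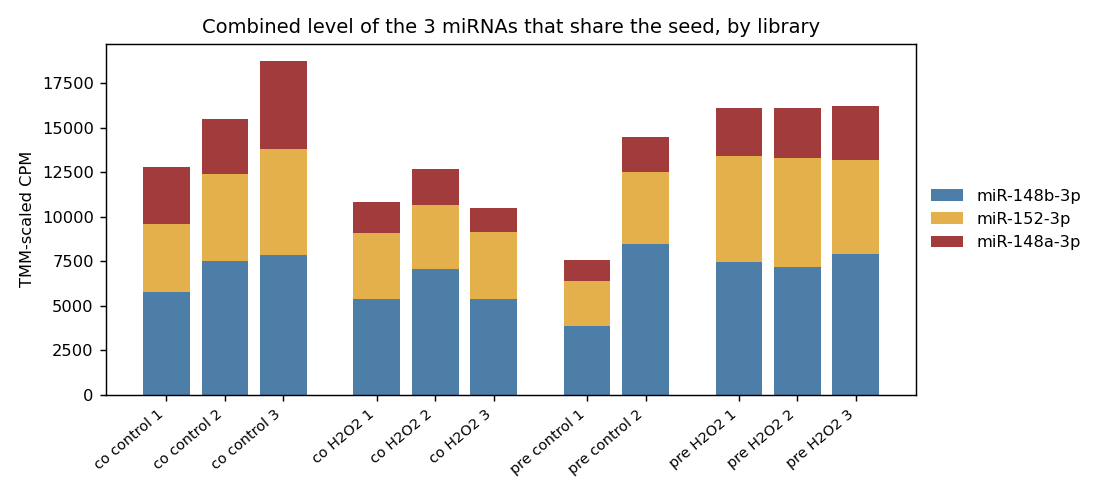
TMM-scaled CPM (y axis, from 0) of the 3 guide strands stacked for each library (x axis; co, co-treatment; pre, pre-treatment). The sum is lowest in pre-treatment control 1 (7554 CPM) and at 16083 to 16211 CPM in the pre-treatment H2O2 libraries, and the band of hsa-miR-148a-3p is widest in the co-treatment controls.

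Profiles over the 11 libraries were compared by the root-mean-square difference of log2 CPM after centring each miRNA within each experiment, between each guide strand and 401 others with a mean of at least 10 CPM. Closest to hsa-miR-148a-3p were hsa-miR-338-3p, a miRNA enriched in neural tissue, at 0.10, hsa-miR-130a-3p at 0.13 and hsa-miR-561-5p at 0.13, where the median of all was 0.62. All 3 had a negative log2FC in co-treatment (−1.29, −1.08 and −1.39) and a positive one in pre-treatment (0.73, 0.97 and 0.91). The sister miRNAs were farther from it, with hsa-miR-152-3p ranked 60 at 0.32 and hsa-miR-148b-3p ranked 90 at 0.39. Closest to hsa-miR-152-3p were hsa-miR-95-3p, hsa-miR-199a-3p and hsa-miR-16-5p (0.13 to 0.16), with hsa-miR-148b-5p ranked 17 and hsa-miR-148b-3p 28. Closest to hsa-miR-148b-3p were hsa-miR-151a-3p, hsa-miR-494-3p and hsa-miR-598-3p (0.14 to 0.15), and hsa-miR-148b-5p of the same hairpin ranked 29. These distances describe the libraries and carry no test.

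miRNAs whose seed region overlaps that of the family were looked up by letters in the RefSeq table. hsa-miR-130a-3p has no entry there and could not be looked up, so the counts and medians below leave it out. It passed the exact test in both experiments (log2FC −1.08, FDR = 0.00601 in co-treatment, 0.97, FDR = 0.0492 in pre-treatment). The hexamer AGUGCA within bases 1 to 9 was found in 11 other mature miRNAs of 2370 (0.464%), hsa-miR-301a-3p among them, whose sequence has the hexamer in capitals.
hsa-miR-301a-3p: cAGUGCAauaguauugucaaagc

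Of these 11, 10 were matched by name to the count tables, 3 were tested in co-treatment and 4 in pre-treatment. In co-treatment hsa-miR-301a-3p fell, with a log2FC of −1.33 (SE 0.28, FDR = 3.95e-04, exact test), and hsa-miR-454-3p, the most abundant at 8046 ± 177 CPM in controls (SD, n = 3), fell by 0.79 on the log2 scale (SE 0.23, FDR = 0.0193, exact test). The median log2FC of the 3 was −0.79, against −0.04 over all tested miRNAs, of which 15.6% fell. In pre-treatment hsa-miR-301a-3p rose by 1.22 (SE 0.27, FDR = 0.0135, exact test), and by 1.03 and 1.45 with control 1 or control 2 as the only control. The median of the 4 was 0.66 against −0.19 over all, of which 5.41% rose. hsa-miR-4671-3p, 1 of the 4, had at most 1.46 CPM and 11 counts.

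A list of other miRNAs known to act on DNA methyltransferase transcripts, not a complete one, held hsa-miR-29a-3p, hsa-miR-29b-3p, hsa-miR-29c-3p, hsa-miR-185-5p, hsa-miR-342-3p, hsa-miR-143-3p and hsa-miR-101-3p, all 7 tested in both experiments. In co-treatment 3 fell, where 15.6% of all tested miRNAs did, and none rose. They were hsa-miR-29b-3p (log2FC −1.78, SE 0.43), hsa-miR-29c-3p (−1.14, SE 0.31) and hsa-miR-101-3p (−0.96, SE 0.29), and the median of the 7 was −0.60. hsa-miR-29b-3p was scarce, at 7.94 CPM in controls and 2.31 CPM with H2O2, with at most 75 counts in a library. The 7 summed to 28470 to 35197 CPM in controls and 26609 to 31497 CPM with H2O2, so the groups overlapped. hsa-miR-143-3p, the most abundant in controls at 13806 CPM, had a log2FC of −0.60 (SE 0.21), and hsa-miR-342-3p, the most abundant with H2O2 at 13557 CPM, one of 0.47 (SE 0.22), and neither passed. In pre-treatment 1 of the 7 rose, hsa-miR-101-3p (1.41, SE 0.36; 1.81 and 1.13 with control 1 or control 2 as the only control), where 5.41% of all did, and the median was 0.24.

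Of 7 miRNAs known to act on cholesterol and lipoprotein genes, 6 were matched and tested. In co-treatment 3 of the 6 fell, where 15.6% of all tested miRNAs did, namely hsa-miR-33a-5p (log2FC −1.22) and hsa-miR-33b-5p (−1.25), which target the cholesterol exporter ABCA1, and hsa-miR-27b-3p (−0.78), the most abundant at 36850.2 CPM in controls. hsa-miR-33a-5p was at 47.1 CPM in controls and 20.2 CPM with H2O2, and hsa-miR-33b-5p at 11.9 and 4.98 CPM. In pre-treatment hsa-miR-122-5p, the dominant liver miRNA, rose by 1.88 on the log2 scale (SE 0.48, FDR = 0.0116, exact test), the only 1 of the 6, where 5.41% of all rose. With control 1 or control 2 as the only control its log2FC was 2.79 or 1.37. The medians of the 6 were −0.62 and 0.38.

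Markers of other cell types were checked because miR-148a is itself abundant in liver. The liver list (3 miRNAs) summed to 93.7 and 262 CPM in pre-treatment controls and to 537 to 788 CPM in the H2O2 libraries, nearly all of it hsa-miR-122-5p. In that comparison hsa-miR-122-3p was at 0 in all libraries and hsa-miR-885-5p in the H2O2 libraries. The co-treatment sum reached 297 CPM in controls and was 209 to 541 CPM with H2O2, so the groups overlapped. There hsa-miR-122-5p did not pass (log2FC 0.66, FDR = 0.144, exact test). White blood cell markers summed to at most 21.7 CPM in all libraries but pre-treatment control 1, which held 113 CPM, and epithelial markers to at most 40.6 CPM but 170 CPM in that control. Among these, hsa-miR-142-5p fell in co-treatment, where 15.6% of all did, and hsa-miR-223-3p and hsa-miR-205-5p in pre-treatment, where 9.91% did. Control 1 held the high values of both, 72.5 CPM of hsa-miR-223-3p and 135 CPM of hsa-miR-205-5p, against H2O2 means of 1.24 and 3.01 CPM. In control 2 hsa-miR-223-3p was at 0.610 CPM, below the H2O2 libraries. Neither was fitted with a single control. Red blood cell markers summed to 2.01 and 3.81 CPM in pre-treatment controls and to 10.2 to 14.2 CPM with H2O2. There 2 of the 3 tested rose, hsa-miR-451a and hsa-miR-144-5p, against 5.41% of all. In co-treatment 1 of the 3 rose, hsa-miR-486-5p at no more than 2.65 CPM, against 10.6% of all. Muscle markers stayed at or under 3.66 CPM. The part of these miRNAs in the family's values was not tested. Of 5 neuronal markers, hsa-miR-128-3p was at 1076 to 1928 CPM and hsa-miR-7-5p at 235 to 686 CPM, whereas hsa-miR-9-5p was at 2.26 to 6.36 CPM and hsa-miR-124-3p, the defining miRNA of mature neurons, at 0 to 0.949 CPM. Of the 4 neuronal markers tested, 2 fell in co-treatment, hsa-miR-9-5p and hsa-miR-218-5p, where 15.6% of all did. None passed in pre-treatment, where 15.3% of all did.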

How the data were processed

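Small RNA of 11 SH-SY5Y libraries had been prepared with the QIAseq miRNA kit. Per the labels and the study's methods, the authors used FastQC 0.11.8 for read quality, Cutadapt 2.10 for adapters, Bowtie2 2.4.1 for alignment to hg19 and htseq-count 0.7.2 to count reads on mature miRNAs. The deposited count tables are not normalized. Whether molecular identifiers were used is not given in the sources used here, so the counting errors given take reads as independent molecules. They leave out the spread between cultures, which the SDs and SEs hold. The authors' own fold changes and p-values were not used.

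Samples were grouped by their titles. A miRNA was tested if its CPM was above 0.936 in 3 or more co-treatment libraries, or above 0.721 in 2 or more pre-treatment libraries, values that 5 counts have in the shallowest library. TMM scaling and the exact test were run in edgeR 4.0.16 (R 4.3.3). Standard errors (SE) and the interaction come from edgeR's quasi-likelihood fit. Strand and sister ratios used counts plus 0.5. DESeq2 1.42.0 was an alternative. P-values measure the spread between these cultures of a single line. The tests were checked on simulated data with planted changes larger than those of the members in the main fits, so recovery of smaller changes was not checked. The members and lists were chosen with earlier results of these data known. Members were reported in full, and nearest profiles were the 3 with the smallest distance. Of the lists on seed overlap, DNA methyltransferases and cholesterol genes, the most abundant member and those passing the test were named. Of the cell type markers those passing were named. The removal of the GC trend (lowess span 0.5, for 88.8% and 88.1% of miRNAs with a mean of at least 10 CPM), the comparison of sister miRNAs and the fits of list members with a single control were chosen after seeing the data. Sequences are from RefSeq (GRCh38.p14 table), matched by name for 4 of the 5 members, and positions from a GRCh37 annotation. hsa-miR-301b, listed without a strand, was not matched to hsa-miR-301b-3p.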

Additional observations from a re-analysis of the deposited data

Results flagged for a closer look

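The response to H2O2 differed between the experiments for 2 of the 5 members, where 27.3% of 945 tested miRNAs passed the same interaction test. The log2FC of hsa-miR-148a-3p was higher in pre-treatment than in co-treatment by 1.99, and that of hsa-miR-152-3p by 1.28, both under an FDR of 0.05 in the interaction test of edgeR's quasi-likelihood fit. The experiment and its timing cannot be told apart. Groups held 2 or 3 libraries, too few for a test of single outlying values.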

How the results depend on the processing

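The members' directions were the same with TMM, library size and DESeq2 size factors. With each library left out in turn, co-treatment log2FC of hsa-miR-148a-3p lay between −1.26 and −0.76, and from 0 to 1 members passed. In pre-treatment from 0 to 4 passed, with log2FC from 0.62 to 1.53 for hsa-miR-148a-3p, −0.058 to 1.20 for hsa-miR-148b-3p, 0.65 to 1.41 for hsa-miR-152-3p, −0.92 to 0.44 for hsa-miR-148a-5p and 0.17 to 1.16 for hsa-miR-148b-5p, all the ends being fits with 1 control. Among these pre-treatment fits, members passed only in those with 1 control, where the calls over all miRNAs rose as well. The difference between experiments lay between −0.058 and 1.18 for hsa-miR-148b-3p and between 0.83 and 1.57 for hsa-miR-152-3p. For hsa-miR-148a-5p it lay between −0.92 and 0.42, and for hsa-miR-148b-5p between 0.40 and 1.38. The pre-treatment strand ratio of MIR148B lay between −0.22 and 0.043, and hsa-miR-148a-3p over hsa-miR-152-3p was −0.060 to 0.12, at −0.032 without control 1. The joint fit passed 1 member in pre-treatment, hsa-miR-152-3p at 0.87. In the fit of miRNAs with a GC value, co-treatment log2FC of hsa-miR-148b-3p was 0.0080, and with the GC trend removed it was 0.35 (−0.048 in pre-treatment), hsa-miR-148b-5p was 0.11 (−0.24 before) and hsa-miR-148a-3p −0.50, leaving 0 members past the test. In pre-treatment the removal gave 0.47 for hsa-miR-148a-3p (0.63 before), 0.67 for hsa-miR-152-3p (0.59 before) and 0.058 for hsa-miR-148b-5p (0.21 before). hsa-miR-148a-5p could not be fitted there, for want of a sequence. The cause of these changes was not tested.

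In co-treatment, same-numbered libraries deviated together weakly or not at all (correlations 0.04, −0.16 and −0.16, against −0.09 to 0.21 for differently numbered ones). The pre-treatment values were 0.22 and −0.05. With 2 controls, deviations from their mean mirror each other, so the pre-treatment values cannot decide on pairs. Numbers were not taken as pairs in either experiment. The quasi-likelihood fit with replicate number as a block kept hsa-miR-148a-3p past the test in co-treatment (log2FC −1.08, FDR = 0.0353) and changed no other member's call. It passed 111 miRNAs in co-treatment and 15 in pre-treatment. Over all miRNAs, the 207 calls of co-treatment became 84 in the joint fit and 107 to 274 with libraries left out. The 133 of pre-treatment became 17 by the quasi-likelihood test, 61 without a low-count filter and 9 to 508 with libraries left out, the highest with 1 control left. Library-size scaling moved the share of co-treatment calls that were higher from 40.6% to 50.5%.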
